A study of Mus musculus with 24 samples.

Results

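The transcripts described here belong to 8 genes of the NRF2 pathway, 8 of the 55335 genes counted in each kidney, and were found by their symbols in the GRCm38 annotation. They are Nfe2l2, which encodes NRF2, its inhibitor Keap1, and the 6 target genes Nqo1, Hmox1, Txnrd1, Srxn1, G6pdx and Osgin1. RNA of whole kidneys was sequenced from 24 mice on the C57BL/6J background, with 6 males and 6 females of each genotype. Mice carrying Pex5lox/lox, Pax8-rtTA and LC1 were made to delete the peroxisomal import receptor Pex5 in the renal tubule (cKOm for males and cKOf for females). The deletion was described as less complete in cKOf, where some full-length mRNA and a much reduced amount of protein remained. Electron microscopy in the paper found almost no peroxisomes in proximal tubules of either cKOm or cKOf. The effect of sex and the extent of deletion cannot be told apart in the comparisons of males with females. Their littermates carrying Pex5lox/lox alone were the controls (Ctrlm and Ctrlf). Every mouse, controls included, received doxycycline (DOX) for 2 weeks from 8 weeks of age, and the kidneys were taken 4 weeks after DOX ended. The time of day is ZT9 in the extraction protocol, whereas the growth protocol gives ZT3 for the experiments. In this model the Pax8 promoter drives rtTA in tubular cells, and vascular, glomerular and interstitial cells of the same kidney are not its target. In RNA of a whole kidney, fewer cells of a type and less RNA per cell cannot be told apart.

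NRF2 is a transcription factor that is made all the time and destroyed almost as fast. KEAP1 holds it and presents it to the CUL3 ubiquitin ligase for degradation. Oxidants and electrophiles modify cysteines of KEAP1, NRF2 then escapes, pairs with a small MAF protein and binds antioxidant response elements near its target genes. The targets regenerate reduced thiols, detoxify quinones, break down heme and supply NADPH, and in the kidney they are best known for protecting the tubule against ischemic and toxic injury. Peroxisomes both make and destroy hydrogen peroxide, so the comparison of cKO with control kidneys asks whether this program differed once peroxisome import was lost in the tubule. Because NRF2 is mainly controlled as a protein, the target transcripts and not Nfe2l2 itself are the usual readout.

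The depth of a kidney ran from 19376152 to 28470831 counts on genes. Levels are in counts per 1000000 counts on genes (CPM), and 16092 genes that reached 1 CPM in any kidney were tested, the 8 genes of interest among them. The targeted gene, Pex5, counted over all its exons, was at 49.1 to 62.8 CPM in Ctrlm kidneys and at 41.8 to 47.3 CPM in cKOm kidneys, which did not overlap. In females it was at 43.0 to 61.7 CPM in Ctrlf and at 38.0 to 48.5 CPM in cKOf, with overlap and an edgeR adjusted p of 0.177. Some male kidneys stood apart in liver transcripts. The 15 hepatocyte markers summed to 538 to 1029 CPM in Ctrlm 1 to 4 and to 557 CPM in cKOm 4, against 52.2 to 147 CPM in the other 19 kidneys, so results in males are also given without those 5 kidneys.

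Antioxidant response elements have the core letters TGACNNNGC. A related type, TGANTCAGC, is close to the letters that AP-1 binds, and TGACTCAGC would match both. Both were searched on both strands in RefSeq promoter windows of GRCm38.p6 that run from 250 bases before to 50 bases after a transcription start. Windows were present for 7 of the 8 genes, with Hmox1 not among them. Of 32817 mouse promoter windows, 12.4% held the core and 1.19% held the second type. Srxn1 and Osgin1 each held the second type, and the letters were the same 9 on opposite strands, TGAGTCAGC read along the motif, which 0.414% of all windows held. These windows are shown because Srxn1 rose in cKOm kidneys and Osgin1, with the same 9 letters, did not pass the test. Capitals mark the match, and each sequence reads 5′ to 3′ on the strand of its gene.
Srxn1, chr2:152105459-152105507, + strand, 65 to 17 bases before the start: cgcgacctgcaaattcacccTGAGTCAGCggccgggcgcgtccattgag
Osgin1, chr8:119437028-119437076, + strand, 119 to 71 bases before the start: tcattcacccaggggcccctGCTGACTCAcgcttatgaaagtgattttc
The Srxn1 stretch lies just outside the annotated gene, and the Osgin1 stretch lies in an intron of its longer GENCODE models. Core matches also stood in the windows of Nfe2l2 (TGACTCCGC, 240 bases before the start), of G6pdx (TGACTGAGC on the opposite strand, 57 bases before, inside an annotated exon) and of 1 of 3 Txnrd1 starts (TGACAAAGC on the opposite strand, 92 bases before). Srxn1 held a core match after its start as well (TGACCTAGC on the opposite strand, 28 bases after). The windows of Keap1 and Nqo1 held neither set of letters. Sequence outside the windows was not searched, so a gene without a match here may hold one farther away.

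Across the 8 genes, Srxn1 was the 1 that rose in cKOm kidneys, by 1.26-fold, and none passed the test in cKOf kidneys. The background was 9.05% of all genes tested in males and 0.851% in females, so 1 of 8 in males is near the share of all genes. By the unadjusted p, 3 of 8 were under 0.05 in males (Nqo1, Hmox1 and Srxn1) and 2 of 8 in females (Hmox1 and Srxn1), beside 25.1% and 6.73% of all genes. No member passed in females by DESeq2 or limma-voom either, where 2 of 8 were again under 0.05 before adjustment. The median log2 fold change of the 8 was -0.07 in males and 0.094 in females, against 0.015 and 0.002 for all genes, with 3 of 8 estimates above 0 in males and 6 of 8 in females.

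**Figure D1:**
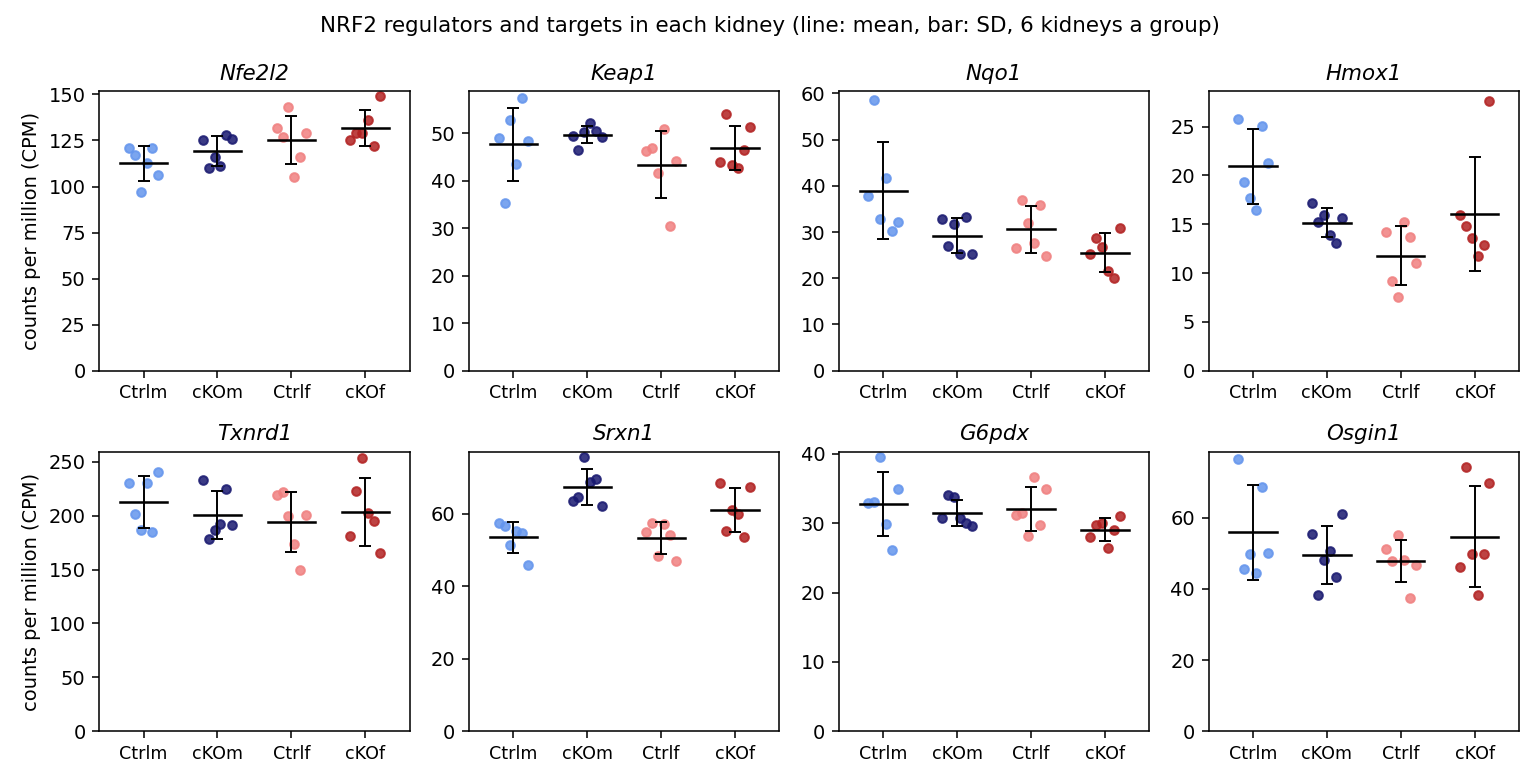
Level of each gene in CPM (vertical axes, from 0) for every kidney, in 4 groups of 6, with the mean as a line and the SD as a bar. The 6 cKOm kidneys lie above the 6 Ctrlm kidneys for Srxn1, while 1 Ctrlm kidney stands high for Nqo1 (58.5 CPM) and 1 cKOf kidney for Hmox1 (27.6 CPM).

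Levels of different genes were set side by side in transcripts per 1000000 (TPM), which scales them by exon length. In Ctrlm kidneys, Txnrd1 (72.0 ± 7.88 TPM, SD, n = 6) and Nfe2l2 (71.5 ± 10.1 TPM) were the highest and did not differ beyond their spread. Nqo1 followed at 61.4 ± 23.4 TPM, then Osgin1 at 50.0 ± 10.9 TPM and Srxn1 at 45.8 ± 6.83 TPM, with overlapping ranges from each to the next. Hmox1 (28.7 ± 5.14 TPM), G6pdx (25.6 ± 4.04 TPM) and Keap1 (24.3 ± 3.05 TPM) were the lowest and overlapped each other, and the highest Hmox1 value, 34.3 TPM, was below the lowest Srxn1 value, 35.8 TPM. In cKOm kidneys Srxn1 (60.7 ± 3.85 TPM) stood above Nqo1 (47.9 ± 6.46 TPM), whose highest kidney was at 55.4 TPM and below the lowest Srxn1 value of 55.6 TPM. Keap1 (27.0 ± 1.59 TPM), G6pdx (26.0 ± 0.763 TPM) and Hmox1 (19.3 to 25.6 TPM) were again the lowest. In females, Hmox1 was the lowest of the 8 at 18.6 ± 5.88 TPM in Ctrlf and at 23.7 ± 7.72 TPM in cKOf, overlapping Keap1 and G6pdx in both, and Nfe2l2 had the highest means, 89.7 ± 10.3 and 89.6 ± 4.40 TPM.

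Nfe2l2 lies on chromosome 2 (75675513 to 75704641, minus strand). It was at 97.0 to 121 CPM in Ctrlm kidneys (median 115) and at 110.0 to 128 CPM in cKOm kidneys (median 120.0), and 3 of the 6 cKOm kidneys lay above every control. Females had 105 to 143 CPM in Ctrlf (median 128) and 122 to 149 CPM in cKOf (median 129). The log2 fold change was 0.08 (95% interval -0.07 to 0.24) in males and 0.07 (-0.09 to 0.23) in females. With edgeR adjusted p of 0.679 and 0.735, neither passed the test, and the intervals leave room for a change of up to 1.18-fold in males and 1.17-fold in females.

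Keap1 lies on chromosome 9 (21229730 to 21239361, minus strand), where its exons overlap the antisense gene Gm16754, which had 148 counts over all kidneys. Its level was 35.3 to 57.5 CPM in Ctrlm (median 48.7) and 46.6 to 52.2 CPM in cKOm (median 49.9), so the cKOm values sat inside the control range. In Ctrlf it was at 30.4 to 50.9 CPM (median 45.3) and in cKOf at 42.8 to 54.0 CPM (median 45.3). The log2 fold changes were 0.06 (-0.16 to 0.28) in males and 0.12 (-0.10 to 0.33) in females, with edgeR adjusted p of 0.860 and 0.678. The kidneys with the lowest Keap1 levels were both controls, Ctrlm 2 and Ctrlf 5. They were also the deepest, at 28470831 and 27401081 counts, and had the highest TMM scaling factors, 1.066 and 1.143. The part of depth or scaling in their levels was not tested. The male estimate was -0.14 (edgeR adjusted p = 0.757) without the 5 kidneys high in hepatocyte markers.

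Srxn1 encodes sulfiredoxin, which repairs overoxidized peroxiredoxins, and lies on chromosome 2 (152105516 to 152111376, plus strand). It was at 45.8 to 57.4 CPM in Ctrlm kidneys (median 55.0) and at 62.1 to 75.5 CPM in cKOm kidneys (median 66.7). The lowest cKOm kidney was above the highest control. The log2 fold change was 0.33 ± 0.08 (SE, 95% interval 0.17 to 0.49), a 1.26-fold rise, with an edgeR adjusted p of 0.00866 and a two-sided exact permutation p of 0.00216, the smallest that 6 against 6 can give. In females Srxn1 was at 47.0 to 57.5 CPM in Ctrlf (median 54.6) and at 53.6 to 68.4 CPM in cKOf (median 60.4). Of the 6 cKOf kidneys, 4 lay above every control. The female log2 fold change of 0.19 ± 0.08 (0.03 to 0.35) did not pass the test (edgeR adjusted p = 0.184, exact permutation p = 0.0346). The male change minus the female change was 0.14 (-0.09 to 0.36, edgeR adjusted p = 0.636), so the sexes were not shown to differ. In males the call was lost without Ctrlm 6, the control with the lowest level (log2 fold change 0.26, edgeR adjusted p = 0.0519). It was also lost with the macrophage marker covariate (edgeR adjusted p = 0.0862). Without the 5 kidneys high in hepatocyte markers, which leaves 2 Ctrlm kidneys, the log2 fold change was 0.38 and the call was lost (edgeR adjusted p = 0.136).

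Txnrd1 encodes cytosolic thioredoxin reductase, which keeps thioredoxin reduced, and lies on chromosome 10 (82833951 to 82897712, plus strand). It was at 185 to 241 CPM in Ctrlm (median 216) and at 178 to 233 CPM in cKOm (median 191). Ctrlf kidneys had 150.0 to 222 CPM (median 201) and cKOf kidneys had 165 to 254 CPM (median 199). The groups overlapped widely in both sexes, and the log2 fold changes were -0.08 (-0.30 to 0.14) and 0.06 (-0.16 to 0.28), with edgeR adjusted p of 0.795 and 0.848. Srxn1 and Txnrd1 serve the same peroxiredoxin cycle, and the difference between their male changes was not tested.

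Nqo1 encodes a quinone reductase and is a widely used marker of NRF2 activity. The gene lies on chromosome 8 (107388225 to 107403206, minus strand). Ctrlm kidneys had 30.2 to 58.5 CPM (median 35.4) and cKOm kidneys had 25.2 to 33.2 CPM (median 29.4). Ctrlm 2, at 58.5 CPM, stood above the other controls, which reached 41.7 CPM. Females had 24.8 to 36.9 CPM in Ctrlf (median 29.8) and 20.1 to 30.9 CPM in cKOf (median 26.0). The estimate was below 0 in both sexes, at -0.42 ± 0.14 (-0.71 to -0.12) in males and -0.26 ± 0.14 (-0.56 to 0.03) in females, and neither passed the test (edgeR adjusted p = 0.101 and 0.393). The exact permutation p was 0.0346 in males and 0.0952 in females. The male estimate depended on the controls: without Ctrlm 2 it was -0.26 (edgeR adjusted p = 0.309), without the 5 kidneys high in hepatocyte markers it was -0.09 (edgeR adjusted p = 0.888), and in DESeq2 it passed at an adjusted p of 0.0466.

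Hmox1 encodes heme oxygenase-1, which opens the heme ring to biliverdin, iron and carbon monoxide, and lies on chromosome 8 (75093621 to 75100589, plus strand). In males the controls had 16.5 to 25.8 CPM (median 20.3) and the cKOm kidneys 13.1 to 17.2 CPM (median 15.4). In females the order was turned, with 7.54 to 15.2 CPM in Ctrlf (median 12.4) and 11.7 to 27.6 CPM in cKOf (median 14.2). The cKOf range owes its top to cKOf 6 at 27.6 CPM, while the other 5 cKOf kidneys lay between 11.7 and 15.9 CPM. The log2 fold change was -0.47 ± 0.18 (-0.83 to -0.10) in males and 0.45 ± 0.18 (0.08 to 0.82) in females, and neither passed the test (edgeR adjusted p = 0.159 and 0.190). By the exact permutation test the male difference had p = 0.00433 and the female difference p = 0.115. When male kidneys were fitted without the females, the male difference passed at an edgeR adjusted p of 0.0216. In 10 of 11 settings other than leaving out a kidney it did not pass. Over the 11 the male estimate ran from -0.625 to -0.343, and the adjusted p by edgeR, DESeq2 or limma-voom reached 0.568.

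The male change of Hmox1 minus the female change was -0.91 ± 0.25 on the log2 scale (-1.43 to -0.39), and its edgeR adjusted p of 0.0544 missed the threshold, with an unadjusted p of 0.00131. It was the 1 of 8 genes with an unadjusted interaction p under 0.05, and 0 of 8 passed after adjustment, where 2.31% of all genes did. DESeq2 put it past the threshold (adjusted p = 0.0144) and limma-voom did not (adjusted p = 0.0673). The interaction also passed in edgeR when 1 of 6 kidneys was left out, Ctrlf 1, 4 or 5, Ctrlm 4, or cKOf 4 or 5 (lowest adjusted p = 0.0314). Without cKOf 6 the female estimate was 0.22 and the interaction -0.69. For the other genes the interaction had edgeR adjusted p from 0.480 (Osgin1, -0.37) to 0.974 (Nfe2l2, 0.01).

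G6pdx encodes glucose-6-phosphate dehydrogenase, the entry to the pentose phosphate pathway and a main source of cytosolic NADPH. It lies on chromosome X (74409483 to 74429194, minus strand), where its exons overlap those of Ikbkg on the other strand. Ikbkg had 22064 counts over all kidneys, and the strand setting of the counting is not given in the sources used here. G6pdx was at 26.1 to 39.6 CPM in Ctrlm (median 33.0), 29.6 to 34.0 CPM in cKOm (median 30.7), 28.2 to 36.6 CPM in Ctrlf (median 31.4) and 26.4 to 31.1 CPM in cKOf (median 29.3). The log2 fold changes were -0.06 (-0.23 to 0.12) in males and -0.14 (-0.32 to 0.03) in females, with edgeR adjusted p of 0.820 and 0.455.

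Osgin1 encodes an oxidative stress induced growth inhibitor and lies on chromosome 8 (119434124 to 119446256, plus strand). Its level was 44.5 to 76.5 CPM in Ctrlm (median 50.0), 38.4 to 61.0 CPM in cKOm (median 49.3), 37.3 to 55.2 CPM in Ctrlf (median 48.0) and 38.4 to 74.2 CPM in cKOf (median 49.9). The group medians lay within 2 CPM of each other, and the spread came from single kidneys, Ctrlm 1 and Ctrlm 5 (76.5 and 68.6 CPM) and cKOf 2 and cKOf 6 (74.2 and 69.7 CPM). The log2 fold changes were -0.17 (-0.49 to 0.14) in males and 0.20 (-0.12 to 0.51) in females, with edgeR adjusted p of 0.659 and 0.607.

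**Figure D2:**
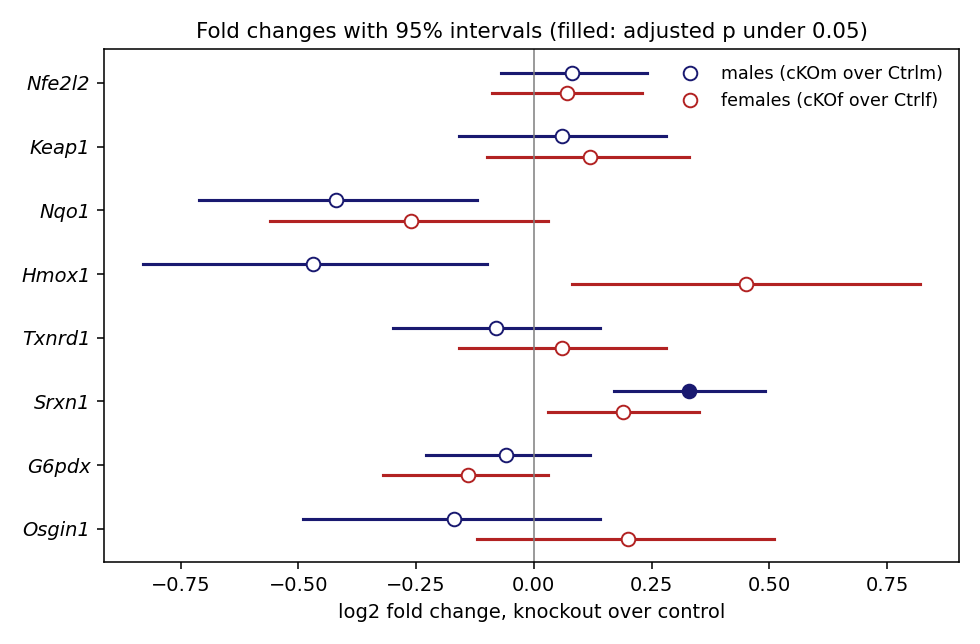
Log2 fold change of cKO over control kidneys (horizontal axis) with its 95% interval for the 8 genes in males and females, where a filled point marks an edgeR adjusted p under 0.05. Srxn1 in males (0.33) is the filled point, and Hmox1 has estimates of opposite sign in males (-0.47) and females (0.45).

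Control males and females were also compared, since the sexes share the same treatment. Hmox1 was lower in Ctrlf than in Ctrlm, with no overlap between 7.54 to 15.2 CPM and 16.5 to 25.8 CPM. The log2 difference was -0.82 ± 0.18 (-1.19 to -0.45), with an edgeR adjusted p of 0.00152 and an exact permutation p of 0.00216. It was the 1 of 8 genes past the threshold, where 16.8% of all genes passed. With 1 kidney left out at a time, the difference ranged from -0.92 to -0.73, and it passed each time. Nqo1 was the other gene with an unadjusted p under 0.05 (-0.35, edgeR adjusted p = 0.101). The remaining differences ranged from -0.23 (Osgin1) to 0.16 (Nfe2l2), and the edgeR adjusted p from 0.183 to 0.967.

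The other genes of the pathway came from lists of regulators, NADPH enzymes, glutathione and thioredoxin genes, detoxification genes and genes of heme and iron handling, 59 in all and 55 tested. In cKOm kidneys 16 of the 55 (29.1%) passed, of which 11 fell and 5 rose, beside the 9.05% of all genes. Each of the 16 had a Ctrlf minus Ctrlm estimate in the same direction as its cKOm change. Between control sexes 27 of the 55 passed, beside 16.8% of all genes. Both comparisons use the same Ctrlm kidneys, so their directions are not independent. The part of sex-dependent expression in the male count was not tested. In cKOf kidneys 0 of 55 passed by edgeR or limma-voom, and Gclc passed by DESeq2 (adjusted p = 0.0430). By edgeR 0.851% of all genes passed in females, so 0 of 55 is near the share of all genes. Under an unadjusted p of 0.05 were 9 of 55 by edgeR and 10 by limma-voom, beside 6.73% of all genes by edgeR. The median log2 fold change of the 55 was -0.11 in males and 0.01 in females, against 0.01 for all genes in males. Me1, Gsr, Gstm1, Abcc3 and Fth1 passed in males in every setting tried, and the other 11 lost the call in at least 1. The male count was 7 with the hepatocyte marker covariate and 6 without the 5 kidneys high in those markers.

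Of 13 regulators, Sqstm1 alone passed in males (7.69%, near the 9.05% of all genes). It encodes p62, an autophagy receptor that can draw KEAP1 away from NRF2, and fell from 408 to 508 CPM in Ctrlm to 342 to 374 CPM in cKOm (log2 fold change -0.29 ± 0.07, edgeR adjusted p = 0.0152). The Sqstm1 call was lost with either marker covariate and without the 5 kidneys high in hepatocyte markers. The small MAF partners Maff, Mafg and Mafk, the repressors Bach1 and Bach2 and the ligase subunits Cul3 and Rbx1 did not pass in either sex. Nfe2l1, a relative of NRF2 that controls proteasome genes, was at 171 to 202 CPM in Ctrlm and 211 to 231 CPM in cKOm, and did not pass (edgeR adjusted p = 0.0554).

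Of 5 NADPH enzymes, Me1, the cytosolic malic enzyme, fell in cKOm kidneys from 499 to 659 CPM in controls to 301 to 406 CPM (log2 fold change -0.73 ± 0.08, edgeR adjusted p = 8.63e-07). Pgd, Tkt, Taldo1 and Idh1 did not pass. Among 8 glutathione and thioredoxin genes tested, 4 fell and 0 rose in males. Gsr, which reduces oxidized glutathione, fell from 168 to 197 CPM to 99.6 to 132 CPM (-0.60 ± 0.09, edgeR adjusted p = 9.59e-05). Prdx1, a peroxiredoxin that Srxn1 can repair, fell by 0.70 ± 0.16 on the log2 scale, from 409 to 725 CPM to 295 to 356 CPM, and Txn1, thioredoxin, fell by 0.67 ± 0.16 (edgeR adjusted p = 0.00793 and 0.0116). Gclm, the modifier subunit of glutamate cysteine ligase, fell by 0.30 ± 0.08 (edgeR adjusted p = 0.0181). Srxn1 was thus higher in the same cKOm kidneys in which its substrate Prdx1 and the partner Txn1 were lower. The Txn1 call was lost with the hepatocyte marker covariate, and the Prdx1 call without the 5 kidneys high in hepatocyte markers. The Srxn1 call was lost without those 5 kidneys and with the macrophage marker covariate.

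The detoxification list gave changes in both directions, with 5 of 21 higher and 2 of 21 lower in cKOm. Gstm1, a glutathione transferase, fell from 310.0 to 357 CPM to 134 to 191 CPM (-1.06 ± 0.10, edgeR adjusted p = 3.86e-08), and Gstp1, another, fell by 0.69 ± 0.17 (edgeR adjusted p = 0.0118). The export pump Abcc3 rose 4.05-fold, from 2.19 to 5.18 CPM in Ctrlm to 11.3 to 19.6 CPM in cKOm, while both female groups were at 77.3 CPM or more. Its relative Abcc4 rose 1.63-fold (edgeR adjusted p = 0.00854). Cbr1, a carbonyl reductase, rose 1.49-fold, Gsta4, a glutathione transferase for lipid aldehydes, 1.48-fold and Ephx1, microsomal epoxide hydrolase, 1.26-fold, with edgeR adjusted p of 0.00337, 0.0403 and 0.0429.

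In heme and iron handling, 3 of 8 fell and 0 rose in males. Fth1, the ferritin heavy chain, fell from 2959 to 4738 CPM to 2055 to 2499 CPM (-0.64 ± 0.12, edgeR adjusted p = 0.000635). The biliverdin reductases Blvra (-0.39 ± 0.11) and Blvrb (-0.55 ± 0.16) passed narrowly, with edgeR adjusted p of 0.0447 and 0.0490. Male and female changes differed for Abcc3 (2.43), Abcc4 (0.96), Gstm1 (-0.91) and Me1 (-0.74), as male minus female log2 fold change, with edgeR adjusted p of 1.73e-06, 0.0209, 0.000229 and 0.000305. These were 4 of 55, beside 2.31% of all genes. The Abcc4 difference did not pass with the replicate block, with the hepatocyte covariate or without the 5 kidneys (edgeR adjusted p = 0.0524, 0.0649 and 0.137).

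**Figure D3:**
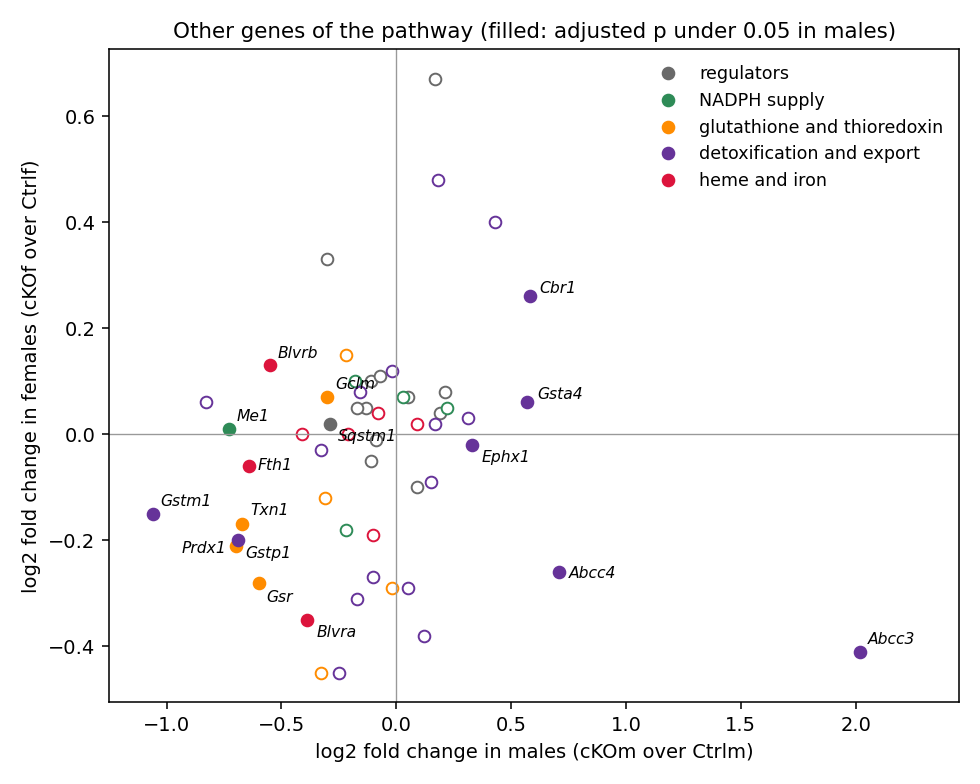
Log2 fold change in males (horizontal axis) against females (vertical axis) for the 55 other genes of the pathway, colored by list, where filled points passed in males. The 16 filled points lie on both sides of 0 in males, from -1.06 (Gstm1) to 2.02 (Abcc3), and between -0.41 and 0.26 in females.

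Relatives of the 8 genes were read beside them. Osgin2 rose in cKOm kidneys from 5.58 to 9.23 CPM to 9.20 to 13.6 CPM (log2 fold change 0.53 ± 0.15, edgeR adjusted p = 0.0330), a call lost in 5 of 11 other settings, namely no filter, the replicate block, either marker covariate and without the 5 kidneys (edgeR adjusted p from 0.0609 to 0.494). Nqo2 was at 42.4 to 49.3 CPM in Ctrlm and 45.1 to 64.2 CPM in cKOm (0.27 ± 0.08, edgeR adjusted p = 0.0609). Hmox2, the constitutive heme oxygenase, had log2 fold changes of -0.02 (-0.24 to 0.21) in males and 0.17 (-0.06 to 0.39) in females. The mitochondrial Txnrd2 and the testis form Txnrd3 did not pass in either sex. G6pd2 had 0 counts in each of the 24 kidneys, which allows up to 3 counts in each, and Nfe2 was under 1 CPM in each, so neither was tested.

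Among 14072 genes with a mean of at least 1 CPM, the gene whose log2 level over the 24 kidneys was most like that of Nqo1 was Pex5, the deleted gene. Pearson's r was 0.80 and Spearman's rho 0.75 over all 24 kidneys, which share the genotype difference, and r was 0.71 after group means were removed. Without Ctrlm 2 and Ctrlf 5, the kidneys farthest from the median of Pex5 and the deepest of the 24, r was 0.74. Within the groups of 6 r ran from 0.74 to 0.79, and rho was 0.31 in Ctrlm and 0.66 to 0.83 in the others. Next in likeness to Nqo1 was Agxt2 (r = 0.76), a mitochondrial aminotransferase. These are descriptions chosen as the highest of many, and no test was made.

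**Figure D4:**
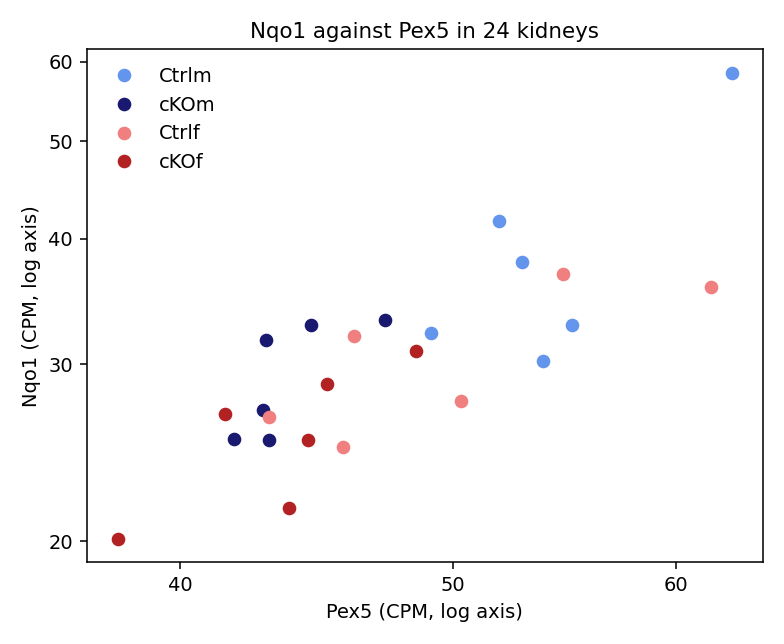
Nqo1 level against Pex5 level in CPM (both log axes) for the 24 kidneys, colored by group. Kidneys with more Pex5 had more Nqo1 (r = 0.80 over all kidneys), and Ctrlm 2 is the point at the top right, with 58.5 CPM of Nqo1.

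By the same measure, Keap1 was most like Ndufs6 (r = 0.89), Calm3 and Psmc1 (both 0.88), and these values stayed at 0.89 to 0.92 with group means removed. Spearman's rho for these genes was lower, at 0.71 to 0.74. Hmox1 was most like Higd2a (0.84), Mrpl20 and Htatip2 (both 0.82). Srxn1 was most like Dusp9 (0.78), Vmn1r32 and Vsig10l (both 0.77), but with group means removed r was 0.60, 0.25 and 0.38. The nearest genes to Nfe2l2, Txnrd1, G6pdx and Osgin1 were Wdr25 (0.77), Gng12 (0.76), Map3k14 (0.80) and Lin37 (0.77). No member was the nearest gene of another. With group means removed, r between members was 0.61 for Keap1 and Osgin1, -0.56 for Nfe2l2 and G6pdx, and 0.44 for Nqo1 and Srxn1.

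Markers of other cell types were read beside these results. Of the 15 hepatocyte markers, 4 fell and 1 rose in cKOm, and their sum had a median of 717 CPM in Ctrlm (112 to 1029), 145 CPM in cKOm (107 to 557), 84.1 CPM in Ctrlf (58.9 to 129) and 68.4 CPM in cKOf (52.2 to 130.0). No hepatocyte marker was at 0 in every kidney of a group. With the sum of the log2 CPM of the hepatocyte markers as a covariate, Srxn1 in males was 0.38 (edgeR adjusted p = 0.0159). Without the 5 kidneys high in these markers, which leaves 2 Ctrlm kidneys, it was 0.38 (0.136), and Hmox1 in males was -0.63 (0.297). Of the 12 macrophage markers, which matter for Hmox1 because macrophages that clear red cells express it strongly, 9 were tested, and 1 fell in cKOm. Their sum was 123 to 203 CPM in Ctrlm, 94.3 to 135 CPM in cKOm, 122 to 280 CPM in Ctrlf and 104 to 150 CPM in cKOf, and Marco was at 0 in every Ctrlf kidney. With the sum of the log2 CPM of the macrophage markers as a covariate, Srxn1 in males was 0.34 (edgeR adjusted p = 0.0862). The Hmox1 interaction was then -0.85 (0.0968). The 10 proximal tubule markers, the main cells of the kidney cortex, showed the labelled tissue, at 14599 to 45036 CPM in sum. In cKOm 6 of the 10 fell, where 9.05% of all genes passed in either direction. Without the androgen-dependent Kap the other 9 summed to 10954 to 11911 CPM, below the 13137 to 15442 CPM of Ctrlm. Of 6 distal tubule markers 1 rose and 0 fell, and their sum was 4374 to 6313 CPM in Ctrlm and 5983 to 6786 CPM in cKOm. Of 6 glomerular and vascular markers 0 passed in males. The part of tubular composition in the male results was not tested. Of 8 genes of tubular injury, 1 passed in males, Spp1, which rose (12.5%, beside 9.05% of all genes), and none passed in females. The median log2 fold change of the 8 in males was -0.12, against 0.01 for all genes.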

How the data were processed

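The authors deposited 1 table of raw counts per kidney, not normalized. The submitters' processing notes name cutadapt 1.8, STAR 2.5.3a and HTSeq 0.9.1 with GRCm38. Library preparation was stranded, and the strand setting of counting is not given in the sources used here. The 5 closing lines of each table were set aside, among them 26.9 to 34.8% of reads without a unique alignment.

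GENCODE (GRCm38) named 55154 of the 55335 identifiers. Genes reaching 1 CPM in any kidney were fitted in R 4.3.3 with edgeR 4.0.16 (TMM, 1 quasi-likelihood model of the 4 groups). Benjamini-Hochberg adjustment took both sexes together and treated the interaction and the control sexes separately, with a threshold of 0.05. CPM uses TMM-scaled library sizes, and log2 levels for correlations a prior count of 2. Alternatives were DESeq2 1.42.0, limma 3.58.1 (voom), other filters and scaling, marker covariates and omitted kidneys. Each marker covariate was the sum of the log2 CPM of the markers in its list, not the log2 of their summed CPM. Leaving out 5 kidneys, or Kap, was chosen after seeing the data. The code was checked on simulated counts.

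The members, lists and tests were chosen with earlier results of these data known. Named are the 8 members, the relatives, and pathway genes past the threshold in either sex. Nfe2l1, Spp1, Gclc and genes listed as not passing were added after their values were seen. Replicates differed beyond sampling noise (chi-square per degree of freedom 9.24 to 91.1 over 60 pairs). Equal replicate numbers mark different mice.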

Additional observations from a re-analysis of the deposited data

Results flagged for a closer look

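Of the 32 sets of 6 kidneys (8 genes in 4 groups), 1 held a kidney apart from the rest by Dixon's criterion, where chance gives about 1 in 20. It was Hmox1 in cKOf 6, at 27.6 CPM, with the gap to the next kidney taking 0.736 of the group's range. Without that kidney the female log2 fold change of Hmox1 was 0.22 in place of 0.45. In the same kidney the summed macrophage (150.0 CPM), erythroid (152 CPM), injury (2394 CPM) and interferon (218 CPM) genes were the highest of its group, while the macrophage pair Adgre1 and Csf1r, at 48.8 CPM, was within the 40.6 to 55.6 CPM of the group. Their part in the value was not tested.

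In 4 genes of the pathway the change in males differed from that in females by the interaction test, 4 of 55 beside 2.31% of all genes. For Abcc4 the difference passed in 6 of 9 other settings, failing with the replicate block, with the hepatocyte covariate and without the 5 kidneys high in hepatocyte markers. The male minus female log2 fold change was 2.43 for Abcc3, 0.96 for Abcc4, -0.91 for Gstm1 and -0.74 for Me1. Abcc3 was at 98.4 to 176 CPM in Ctrlf and at 2.19 to 5.18 CPM in Ctrlm, and Me1 at 203 to 257 CPM in Ctrlf and at 499 to 659 CPM in Ctrlm, so for both the cKOm level lay between the control sexes, at 11.3 to 19.6 CPM and 301 to 406 CPM. Gstm1 in cKOm (134 to 191 CPM) was below every group, Ctrlf (251 to 359 CPM) included. A difference between control sexes was not particular to Abcc3 and Me1, since 27 of the 55 pathway genes passed there, beside 16.8% of all genes.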

How the results depend on the processing

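The Srxn1 rise in males kept its direction in every setting, but passed in 9 of 11 settings other than leaving out a kidney, failing with the macrophage covariate and without the 5 kidneys high in hepatocyte markers. Members past the threshold in males were 2 in DESeq2 (Nqo1 added) and with each sex fitted alone (Hmox1 added), 0 with the macrophage covariate and without the 5 kidneys, and 0 to 1 with 1 kidney left out (0 without Ctrlm 6). In females the count was 0 throughout, and between control sexes 1. Members in the interaction were 1 (Hmox1) in DESeq2, with no filter and with at least 1 CPM in 6 kidneys (edgeR adjusted p = 0.0410 and 0.0498), and 0 to 1 with 1 kidney left out, Hmox1 passing without Ctrlf 1, 4 or 5, Ctrlm 4, or cKOf 4 or 5. Pathway genes in males, 16 as reported, were 7 with the hepatocyte covariate, 10 with the macrophage covariate, 6 without the 5 kidneys and 11 to 18 with 1 kidney left out. In females they were 1 in DESeq2, 1 with the macrophage covariate (Blvra) and 0 to 3 with 1 kidney left out, the 3 (Blvra, Gsta3 and Sesn2) without cKOf 6 and 1 each without Ctrlf 1 (Gclc) and Ctrlf 5 (Gsr). Me1, Gsr, Gstm1, Abcc3 and Fth1 passed in males in every setting, whereas Blvrb lost its call in 18 of 24 omissions of a kidney, Blvra in 15, Ephx1 in 14, Gsta4 in 11 and Osgin2 in 7.

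All genes past the threshold in males, 1456 as reported, were 874 with the hepatocyte covariate, 593 without the 5 kidneys and 1173 to 1724 with 1 kidney left out. In females, 137 as reported, they were 43 with adjustment within each sex, 83 without the 5 kidneys and 108 to 173. In the interaction, 372 as reported, they were 574 in DESeq2 and 281 to 476, and between control sexes, 2707 as reported, 1503 with the hepatocyte covariate, 1554 without the 5 kidneys and 2332 to 2935. The cause of these moves was not tested.

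Signs turned only for estimates that had not passed. Without the 5 kidneys they were Keap1 in males (-0.140), G6pdx in males (0.015), the interactions of Nqo1 (0.175) and Nfe2l2 (-0.013), and, between control sexes, Srxn1 (0.057) and G6pdx (0.046). G6pdx in males was 0.154 with the macrophage covariate, and between control sexes 0.062 there and 0.032 with the hepatocyte covariate, where Srxn1 was 0.067. The Nfe2l2 interaction was -0.007 in DESeq2, with RLE scaling and with no filter, -0.009 with the stricter filter and -0.020 with the macrophage covariate. With 1 kidney left out, signs turned within -0.014 to 0.120 for Keap1 and -0.116 to 0.002 for G6pdx in males, -0.010 to 0.118 for Txnrd1 in females, -0.030 to 0.050, -0.130 to 0.010 and -0.227 to 0.002 for the interactions of Nfe2l2, Keap1 and Nqo1, and -0.068 to 0.026 and -0.088 to 0.029 for Srxn1 and G6pdx between control sexes.

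Same-numbered kidneys of a sex did not deviate together (r from -0.20 to 0.12), and with the number as a replicate block 1268, 110, 271 and 2415 genes passed in males, females, the interaction and between control sexes, with 15 pathway genes in males and no call of the 8 members changed. The block ended the male calls of Gsta4, Blvrb and Osgin2 and the interaction of Abcc4. Without TMM factors the exact permutation p was 0.0779 in place of 0.0346 for Nqo1 in males, 0.106 in place of 0.0346 for Srxn1 in females and 0.0195 in place of 0.0844 for Nfe2l2 between control sexes.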
